A study of Rattus norvegicus with 6 samples.

Results

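The 10 genes of hepatic triglyceride handling described here were measured in rat liver after a short period on little dietary protein, and were chosen by symbol: Gpam, Agpat2, Lpin1, Lpin2, Dgat1, Dgat2, Pnpla2, Pnpla3, Plin2 and Mgll. Earlier results of these data were known when they were chosen. The platform annotation gave 20 probe sets with exactly 1 of these symbols, out of 31042 probe sets tested, and the 10 genes stood among 14217 named genes. A probe set is a group of short oligonucleotides that together report 1 transcript. Dgat1, Agpat2 and Pnpla2 had 1 probe set each, Gpam, Lpin1, Lpin2, Dgat2 and Plin2 had 2 each, Pnpla3 had 3 and Mgll had 4. Probe sets of 1 gene share a target and were not counted as replicates.

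The samples were livers of male Wistar rats aged 6 weeks on purchase, weighing about 150 g, 3 arrays from rats on the control diet (15P) and 3 from rats on an isoenergetic low-protein diet (5P). All rats had 4 days of pellet feed and 4 days of training to eat the control diet in a daytime window. Each group then ate its own diet for 8 hours, and livers were removed after 16 hours of fasting, so both groups were fasted. Whether each array is a separate animal is not given by the labels, so every p-value reflects the spread between these samples alone, which may be technical. Each diet was measured on 3 arrays, and that number limits the precision. The median intensity of the arrays ran from 33.26 to 34.24. On the first principal component, with 36.9% of the variance, the control arrays scored -26.9, -22.5 and -10.1 and the low-protein arrays 17.3 to 22.6, so control replicate 3 lay nearest to the other diet. Markers of hepatocytes were near the top of the intensity range, with Cps1 and Fah above 99.6% and 98.6% of genes. Both were lower in low-protein livers without overlap and did not pass (log2 fold changes -0.23, SE 0.090, and -0.25, SE 0.086). Of the 9 measured hepatocyte markers, 3 had higher means. Alb had 0.00, Hnf4a -0.01, Ttr -0.02, Serpina1 0.05 and Cyp2e1 0.10, with Apoa1 at -0.19 and Tat at -0.35 (SE 0.353). Bile duct markers had lower means in 5 of 6 cases, where 57.6% of all genes had a higher mean. Their levels ran from 4.77 to 5.21 in control and 4.70 to 5.02 in low-protein livers. Epcam was at -0.55 (SE 0.237, and -0.31 without control replicate 1), Krt19 at -0.39 (SE 0.133) and Krt7 at 0.13 (SE 0.144). Cftr, Muc1 and Spp1 had -0.11, -0.03 and -0.01. The part of the hepatocyte or bile duct markers in the results was not tested. The RNA came from whole tissue, in which fewer cells of a type and less RNA per cell cannot be told apart.

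Liver cells build triglyceride by adding fatty acids to glycerol 3-phosphate. GPAM, a mitochondrial acyltransferase, adds the first and AGPAT2 the next. The lipins LPIN1 and LPIN2 then remove the phosphate, and DGAT1 or DGAT2 adds the last fatty acid. The product is stored in droplets coated by PLIN2 or loaded into lipoproteins. ATGL, the product of Pnpla2, starts the breakdown of stored triglyceride, and MGLL releases the last fatty acid from monoacylglycerol. PNPLA3 is a droplet protein related to ATGL whose gene is known to be high after carbohydrate feeding and low in fasting.

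Pnpla3, Mgll and Plin2 are shown with their promoters, because they had the clearest separation between diets or the widest spread among arrays. The sequences are the 250 bases before the RefSeq start site on assembly GRCr8, written 5′ to 3′, and capitals mark matches to the motifs searched. Pnpla3 is at chr7:117173278-117173527 on the plus strand, Mgll at chr4:122749186-122749435 on the plus strand and Plin2, for the more upstream of its start sites, at chr5:106229019-106229268 on the minus strand.
Pnpla3: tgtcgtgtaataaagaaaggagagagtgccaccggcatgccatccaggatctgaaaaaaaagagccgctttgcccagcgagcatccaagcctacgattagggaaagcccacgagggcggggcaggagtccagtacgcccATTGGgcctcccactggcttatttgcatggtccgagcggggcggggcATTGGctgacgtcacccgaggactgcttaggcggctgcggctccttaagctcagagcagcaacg
Mgll: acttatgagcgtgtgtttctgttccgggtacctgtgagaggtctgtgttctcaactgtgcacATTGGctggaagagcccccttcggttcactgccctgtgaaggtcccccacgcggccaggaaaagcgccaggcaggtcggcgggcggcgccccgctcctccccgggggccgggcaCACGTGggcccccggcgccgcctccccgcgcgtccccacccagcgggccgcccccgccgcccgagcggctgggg
Plin2: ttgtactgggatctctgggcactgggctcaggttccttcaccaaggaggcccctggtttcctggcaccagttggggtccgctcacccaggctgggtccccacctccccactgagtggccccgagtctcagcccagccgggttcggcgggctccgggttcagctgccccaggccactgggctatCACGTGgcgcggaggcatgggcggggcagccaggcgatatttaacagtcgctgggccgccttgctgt
The motifs were the E-box CACGTG, the sterol element TCACNCCAC, the CCAAT box, the amino acid response element core TGATGNAA and the PPAR element (a direct repeat of AGGTCA with any base between), each searched on both strands from 250 bases before to 50 bases after the start. The E-box and the CCAAT box do not overlap each other in these windows, and the palindromic E-box was counted once. Pnpla3 held the CCAAT box on the minus strand at -111 to -107 and -64 to -60 from its start. Mgll held an E-box at -74 to -69 and a CCAAT box at -188 to -184, and Plin2 held an E-box at -67 to -62. RefSeq promoters were found for 8 of the 10 genes, 9 windows in all. Of these 9, 2 held the E-box against 6.42% of all 33469 promoters, 5 the CCAAT box against 37.5%, and 1, that of Gpam, the amino acid response core against 3.98%. None of the 9 held the sterol element or the PPAR element, which were in 1.12% and 0.0538% of all promoters. A match is a run of letters and does not show that a factor binds there.

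None of the 20 probe sets passed the test between diets at an adjusted p under 0.05 (limma, Benjamini-Hochberg over all probe sets), where 0.132% of all probe sets did. Pnpla3 was lower on every low-protein array than on any control array in all 3 of its probe sets, and came nearest to the threshold. Mgll was higher without overlap in 3 of its 4 probe sets, and Plin2 and Agpat2 had higher means with overlapping groups. The remaining genes had log2 fold changes between -0.31 and 0.21. The mean was higher in low-protein livers for 11 probe sets and lower for 9, where 58.1% of all were higher. At an unadjusted p under 0.05 there were 9 probe sets of 5 genes, 6 higher and 3 lower, against 15.4% of all probe sets, 7.83% higher and 7.58% lower. With 1 probe set a gene (that of highest mean), 4 of the 10 genes had an unadjusted p under 0.05, where 16.3% of all genes did; 3 were higher and 1 lower, against 8.34% and 7.98% of all genes. None of the 10 passed over all genes, where 0.183% did. Groups did not overlap in 7 probe sets, 4 higher and 3 lower, against 21.6% of all probe sets, 12.5% higher and 9.12% lower. By gene, only Mgll and Pnpla3 of the 10 did not overlap, 1 higher and 1 lower, against 12.8% and 10.1% of all genes; in all this share is near the 22.9% of all genes. The median log2 fold change of the 20 probe sets was 0.06, against 0.03 for all probe sets, and that of the 10 genes was 0.09, against 0.03 for all genes.

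**Figure D1:**
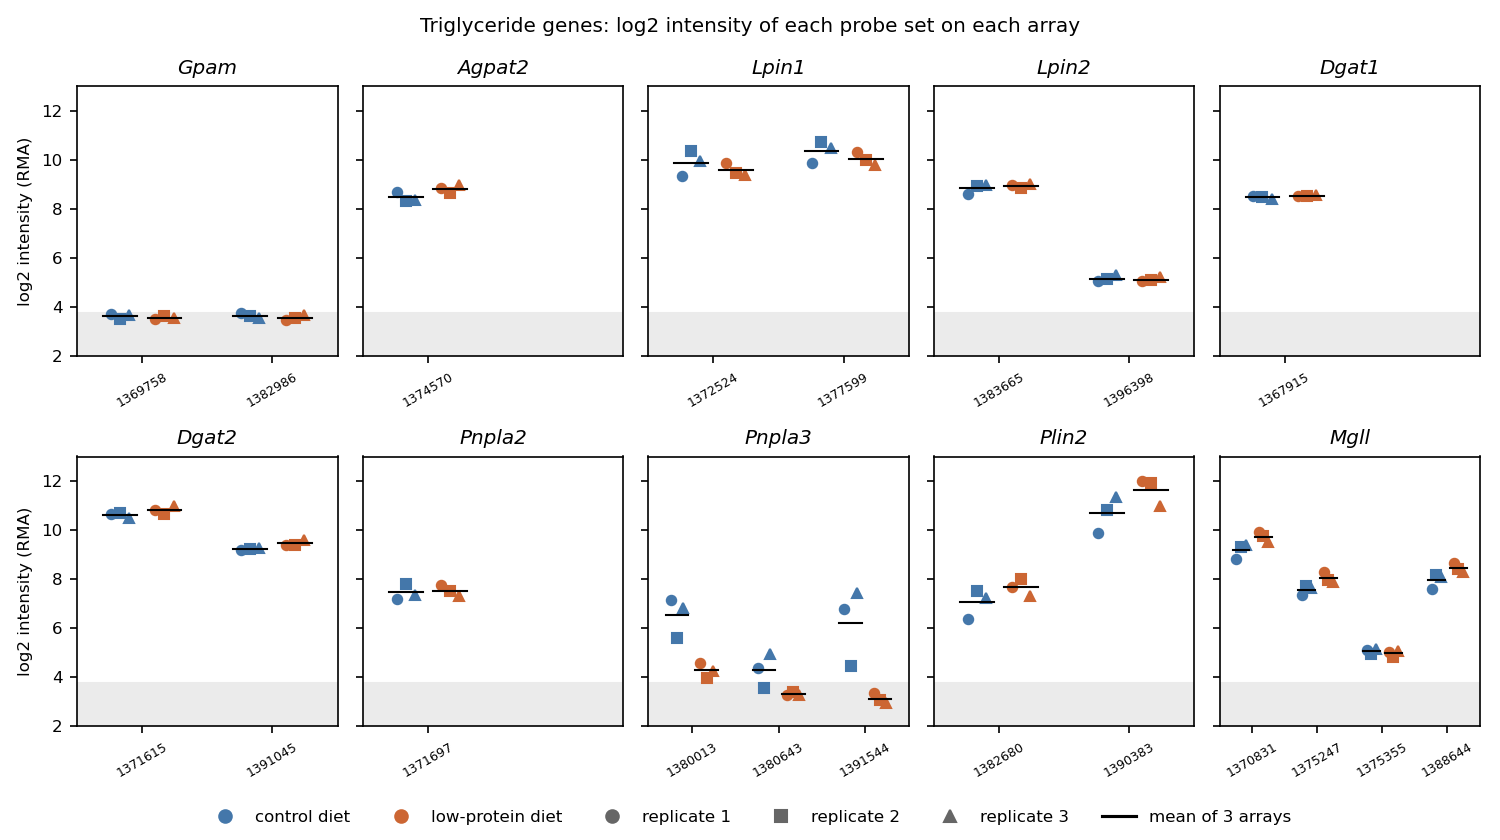
The log2 intensity of each of the 20 probe sets on each array, with control arrays in blue, low-protein arrays in orange, a marker shape for each replicate number and a bar at the mean of 3 arrays. The grey band marks values under the mean of the arrays' 25th percentiles. The Pnpla3 probe sets separate the diets without overlap, and both Gpam probe sets lie inside the band.

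Pnpla3 (gene ID 362972) had the largest differences. Probe set 1380013_at read 7.13, 5.59 and 6.84 on control replicates 1, 2 and 3 and 4.59, 3.98 and 4.26 on low-protein replicates 1, 2 and 3 (log2 intensity). Control replicate 2 was the lowest control and still 1 log2 unit above the highest low-protein array. The means were 6.52 ± 0.82 and 4.28 ± 0.30 (SD, n = 3 each). The log2 fold change (low protein minus control) was -2.24 (SE 0.357, 95% interval -3.06 to -1.42), or 4.72-fold lower, with an adjusted p = 0.0595 (limma). By unadjusted p this probe set ranked at 104 among the 31042.

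The other Pnpla3 probe sets had the same order of diets. Probe set 1391544_at read 6.77, 4.46 and 7.45 in control livers and 3.34, 3.08 and 2.94 in low-protein livers. Again control replicate 2 was well under the other controls. Its log2 fold change was -3.11 (SE 0.635, 95% interval -4.56 to -1.65, adjusted p = 0.0911 by limma). Probe set 1380643_at read 4.38, 3.57 and 4.93 in control livers and 3.28, 3.41 and 3.28 in low-protein livers, which gave -0.97 on the log2 scale (SE 0.285, adjusted p = 0.181 by limma). The low-protein values of 1391544_at and 1380643_at were all under the 25th percentile of their arrays, which ran from 3.78 to 3.80 there, so how far below the controls the transcript lay is poorly measured by these 2 probe sets. Control replicate 2 of 1380643_at, at 3.57, was also under the 25th percentile of its array, 3.7. The gap between it and the highest low-protein value, 3.41, thus lies at low intensity.

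Pnpla3 varied widely among control arrays, and its call turned on 1 of them. The control SD of 1391544_at, 1.57, was exceeded by 10 of all 31042 probe sets, and those of 1380013_at and 1380643_at by 116 and 210. With control replicate 2 left out, the fitted difference was -2.70 for 1380013_at (adjusted p = 0.00631 by limma) and -3.99 for 1391544_at (adjusted p = 0.00395), so 2 of the 20 probe sets passed. Without control replicate 2, 1380643_at had -1.33 (adjusted p = 0.0849). With any other array left out, 1380013_at ran from -2.39 to -1.93 and 1391544_at from -3.22 to -2.50, and neither passed. Over all alternatives the adjusted p ran from 0.00631 to 0.158 for 1380013_at and from 0.00395 to 0.239 for 1391544_at.

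**Figure D2:**
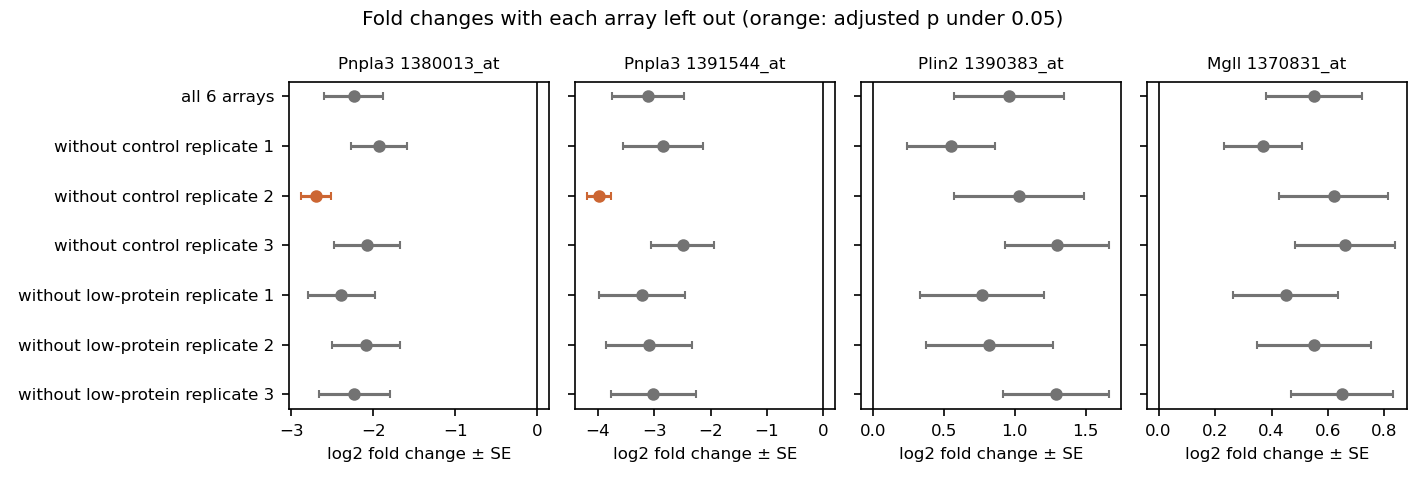
Log2 fold changes (low protein minus control, bars are ± SE) of Pnpla3, Plin2 and Mgll probe sets with all 6 arrays and with each array left out in turn, where orange marks an adjusted p under 0.05. Only the 2 Pnpla3 probe sets without control replicate 2 passed, and Plin2 moved most without control replicate 1, to 0.55.

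The genes whose values over the 6 arrays lay nearest to those of Pnpla3 1380013_at, each centred on its own mean, were Cyp51, Insig1, Idi1, Fdps and Akr1c3. The root mean square difference was 0.41 for Cyp51 (a sterol demethylase), 0.44 for Insig1 (a sterol-sensing membrane protein), 0.44 for Idi1 (an isoprenoid isomerase), 0.45 for Fdps (a prenyl synthase) and 0.48 for Akr1c3 (an aldo-keto reductase). Cyp51, which fell, read 10.97, 10.33 and 10.72 in control livers and 8.83, 8.86 and 8.96 in low-protein livers. Idi1 read 9.08, 7.85 and 8.30 in control livers and 6.23, 6.78 and 6.51 in low-protein livers. Idi1 and Akr1c3 did not pass (adjusted p = 0.0593 each by limma). The 5 genes had log2 fold changes from -1.90 to -1.54. Likeness over 6 arrays in 2 groups includes the arrays within each diet as well as the difference between diets, and 5 of 14207 genes were picked for it. A large difference between diets weighs heavily in this measure, so it does not show a shared order within a diet.

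Mgll (gene ID 29254), the monoacylglycerol lipase, was higher in low-protein livers by 3 probe sets. Probe set 1370831_at read 8.82, 9.32 and 9.40 in control livers and 9.94, 9.74 and 9.52 in low-protein livers. Every low-protein array was above every control, though low-protein replicate 3 and control replicate 3 were close. Its log2 fold change was 0.55 (SE 0.169, 95% interval 0.16 to 0.94, adjusted p = 0.192 by limma). Probe sets 1388644_at and 1375247_at gave 0.50 (SE 0.155) and 0.48 (SE 0.134), with adjusted p = 0.193 and 0.167 by limma. The fourth, 1375355_at, read 5.09, 4.95 and 5.13 in control livers and 5.03, 4.81 and 5.08 in low-protein livers, with a log2 fold change of -0.08 (SE 0.105). That probe set sat at the 49.1 percentile of all probe sets by mean intensity, whereas the other 3 sat between the 83.3 and the 93.7 percentile. Without control replicate 1 the value for 1370831_at was 0.37.

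Plin2 (gene ID 298199), the main droplet coat protein of hepatocytes, varied more among arrays of 1 diet than most genes. Probe set 1390383_at read 9.86, 10.82 and 11.35 in control livers and 12.02, 11.91 and 10.98 in low-protein livers. The groups overlapped, since low-protein replicate 3 was under control replicate 3. The log2 fold change was 0.96 (SE 0.385, 95% interval 0.08 to 1.84, adjusted p = 0.287 by limma), or 1.95-fold higher. It was 0.55 without control replicate 1. Probe set 1382680_at read 6.38, 7.52 and 7.24 in control livers and 7.69, 8.02 and 7.30 in low-protein livers, with a log2 fold change of 0.62 (SE 0.288), and 0.29 without control replicate 1. In both probe sets control replicate 1 was the lowest array and low-protein replicate 3 the lowest of its diet. Their control SDs, 0.75 and 0.60, were exceeded by 152 and 306 of all probe sets.

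Pnpla2 (gene ID 361676), which encodes the lipase ATGL, read 7.20, 7.81 and 7.36 in control livers and 7.75, 7.51 and 7.31 in low-protein livers. The diets overlapped fully. The log2 fold change was 0.07 (SE 0.172, 95% interval -0.33 to 0.46), and leaving out control replicate 1 or low-protein replicate 1 turned it to -0.06 or -0.05. A difference between diets of up to 0.46 on the log2 scale upward or 0.33 downward is within that interval.

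Agpat2 (gene ID 311821), the second acyltransferase, read 8.67, 8.32 and 8.37 in control livers and 8.84, 8.63 and 8.98 in low-protein livers. All 3 low-protein arrays were above the control mean, but replicate 2 was just under control replicate 1. Its log2 fold change was 0.36 (SE 0.130, adjusted p = 0.241 by limma). Dgat2 (gene ID 252900), an endoplasmic reticulum enzyme of the last acylation, read 9.20, 9.24 and 9.28 in control livers and 9.40, 9.37 and 9.59 in low-protein livers in probe set 1391045_at. Those groups did not overlap, and low protein minus control was 0.21 on the log2 scale (SE 0.093, adjusted p = 0.323 by limma). In probe set 1371615_at, which read 10.67, 10.69 and 10.50 in control livers and 10.80, 10.64 and 10.99 in low-protein livers, they did, with 0.18 (SE 0.113) and 0.09 without low-protein replicate 3. Dgat1 (gene ID 84497), the other enzyme of that step, ran from 8.38 to 8.51 in control livers and from 8.50 to 8.54 in low-protein livers, a log2 fold change of 0.06 (SE 0.084, 95% interval -0.13 to 0.25).

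Lpin1 (gene ID 313977), a phosphatidate phosphatase that also acts as a transcriptional coactivator, had lower means with wide overlap. Probe set 1377599_at read 9.85, 10.70 and 10.46 in control livers and 10.32, 9.98 and 9.78 in low-protein livers. Control replicate 1 was next to the lowest of the 6 and the other controls were the highest. The log2 fold change was -0.31 (SE 0.222), -0.55 without control replicate 1 and -0.13 without control replicate 2. Probe set 1372524_at gave the same log2 fold change of -0.31 (SE 0.239), -0.58 without control replicate 1 and -0.08 without control replicate 2. Lpin2 (gene ID 316737), the related liver phosphatase, ran from 8.58 to 8.97 in control livers and from 8.83 to 9.00 in low-protein livers in probe set 1383665_at. Its log2 fold change was 0.11 (SE 0.123), and -0.02 without control replicate 1. Probe set 1396398_at gave -0.04 (SE 0.098), with 0.02 without control replicate 3.

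Gpam (gene ID 29653), the first acyltransferase, was hardly measured. Probe set 1369758_at ran from 3.50 to 3.68 in control livers and from 3.48 to 3.60 in low-protein livers, and 1382986_at from 3.52 to 3.74 and from 3.46 to 3.65. They stood at the 21 and 21.3 percentile of all probe sets by mean intensity, and Gpam at the 11.6 percentile of genes. Every value but 1 (3.74 against 3.72, control replicate 1) was under the 25th percentile of its array. Their log2 fold changes of -0.07 (SE 0.090) and -0.09 (SE 0.099) give no measure of the transcript at that intensity.

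**Figure D3:**
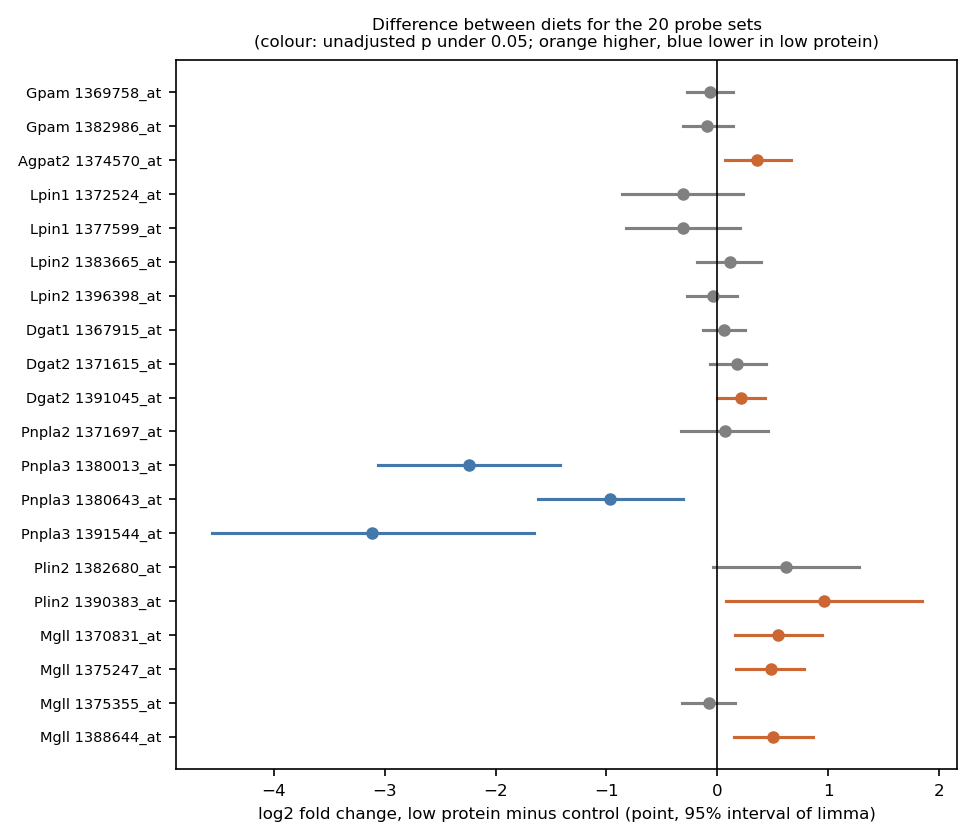
Log2 fold change of each of the 20 probe sets (low protein minus control) with its 95% interval from limma, coloured where the unadjusted p was under 0.05, orange higher and blue lower in low-protein livers. The 3 Pnpla3 probe sets lie between -3.11 and -0.97, and none of the others is below -0.31 or above 0.96.

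Among control arrays the genes did not share an order. Replicate 1 was the lowest control in 11 of the 20 probe sets, where it was lowest in 31.1% of all probe sets, among them both of Plin2, both of Lpin1 and 3 of the 4 of Mgll. Replicate 2 was the lowest control in 6, where it was lowest in 35.5% of all, among them all 3 of Pnpla3. The control array with the lowest Pnpla3 values was therefore not the lowest for Plin2, Lpin1 and 3 of the 4 Mgll probe sets. In the fourth, Mgll 1375355_at, control replicate 2 was the lowest control, at 4.95.

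Differences within an array were compared for 5 pairs of genes, each by its probe set of highest mean, with an exact two-sided permutation test. With 3 against 3 arrays its smallest p is 0.1, so no pair could pass, and the values serve as a description. The pairs were chosen after the values were seen. The groups of Pnpla3 and Mgll already did not overlap, so the separation of their pairs is no independent result. Pnpla3 minus Pnpla2 was -0.94 ± 1.13 in controls and -3.24 ± 0.25 in low-protein livers (SD, n = 3 each), and the difference between diets, -2.31, separated the groups (exact permutation p = 0.1, 0.25 adjusted over the 5 pairs). Mgll minus Pnpla2 was 1.73 ± 0.28 and 2.21 ± 0.02, a difference of 0.48 with no overlap (exact permutation p = 0.1, adjusted 0.25). Plin2 minus Pnpla2 differed by 0.89 (exact permutation p = 0.2, adjusted 0.25), Lpin2 minus Lpin1 by 0.42 (exact permutation p = 0.2, adjusted 0.25) and Dgat2 minus Dgat1 by 0.13 (exact permutation p = 0.3, adjusted 0.3).

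Genes around the 10 were given by lists, which were chosen with earlier results of these data known. In 6 lists of neighbouring pathways, 83 genes were measured, and none passed over all genes (limma); 21 had an unadjusted p under 0.05, 11 higher and 10 lower, against 16.3% of all genes. Their median log2 fold change was 0.03, as for all genes.

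Of 16 measured genes of the glycerol backbone and acylation, 10 were higher, with a median of 0.11. Gpd2, the mitochondrial glycerol-3-phosphate dehydrogenase, read 6.14, 6.28 and 6.57 in control livers and 7.18, 7.08 and 6.74 in low-protein livers. The groups did not overlap, and the log2 difference was 0.67 (SE 0.150, adjusted p = 0.11 by limma; 0.83 and 0.0434 by its probe set of largest SD, 0.0434 to 0.264 over the alternatives). Plpp2, a lipid phosphate phosphatase, had 0.64 (SE 0.184) and Gk, glycerol kinase, 0.41 (SE 0.128), both without overlap. Mogat1, an acyltransferase of monoacylglycerol, had 0.25 (SE 0.102) at the 6.81 percentile of genes by mean intensity.

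Of 13 measured genes of fatty acid supply, 8 were lower, with a median of -0.14, where 57.6% of all genes had a higher mean. Of the 13, 6 were lower without overlap, where 10.1% of all genes were. Because the list was chosen with earlier results of these data known, that share is a description and not a test. Acsl3, an acyl-CoA synthetase of the endoplasmic reticulum and droplet surface, read 7.25, 6.91 and 6.66 in control livers and 5.81, 6.00 and 5.43 in low-protein livers. Dbi, the acyl-CoA binding protein, read 12.77, 12.72 and 12.67 in control livers and 12.05, 11.44 and 11.37 in low-protein livers. Both were lower on every low-protein array by more than the spread of the controls. The log2 fold change was -1.19 for Acsl3 (SE 0.185, adjusted p = 0.0593 by limma) and -1.10 for Dbi (SE 0.171, adjusted p = 0.0593). Acsl3 passed without control replicate 3 (-1.33, adjusted p = 0.0497) and with array weights (0.0442), with 0.0408 to 0.166 over the alternatives. Dbi passed without low-protein replicate 1 (-1.31, adjusted p = 0.0124), with 0.0124 to 0.166 over the alternatives, and both passed with the filter at the 50th percentile (0.0408). The synthetases Acsl5 and Acsl4 had -0.56 (SE 0.147; -0.27 as the mean of its probe sets) and -0.41 (SE 0.150).

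Of 18 lipid droplet genes, 12 were higher, with a median of 0.03. Cidea, which promotes droplet fusion, read 6.70, 7.19 and 7.19 in control livers and 8.61, 7.91 and 7.38 in low-protein livers. Low-protein replicate 1 was highest and replicate 3 just above the controls, as in Mgll 1370831_at. The log2 fold change was 0.94 (SE 0.288, adjusted p = 0.181 by limma), and 0.62 without low-protein replicate 1. Plin5, a droplet protein of oxidative tissue, had 0.52 (SE 0.109, adjusted p = 0.0982 by limma) at the 27.5 percentile of genes by mean intensity. Fitm2, of droplet budding, had 0.42 (SE 0.117). The small GTPase Rab7a had -0.20 (SE 0.088), which was -0.30 as the mean of its probe sets and -0.40 by the one of largest SD. Fat cell markers were measured for 7 of 8 genes, and 5 were higher. Their mean level ran from 5.74 to 5.88 in control livers and from 5.92 to 5.98 in low-protein livers. Adipoq and Lep had log2 fold changes of 0.13 (SE 0.082) and 0.29 (SE 0.112) and stood low, at the 22.3 and 17.7 percentile of genes by mean intensity. Plin1 had 0.20 (SE 0.128), which was 0.10 without low-protein replicate 2 and 0.05 as the mean of its probe sets. Lipe had 0.17 (SE 0.120) and Fabp4 0.25 (SE 0.350). The better expressed Cidec and Cfd, at the 92.3 and 66.8 percentile of genes, had -0.05 (SE 0.179) and -0.01 (SE 0.115). Red blood cell markers, 5 of 8 measured and 4 higher, ran from 5.99 to 6.06 in control livers and from 6.22 to 6.43 in low-protein livers, with Hbb at 0.48 (SE 0.084; adjusted p = 0.0729 by limma, 0.0453 with the filter at the 50th percentile) and Alas2 at 0.43 (SE 0.098). Kupffer cell markers had higher means in 8 of 9 cases, where 57.6% of all genes did, with a median of 0.11. Their levels ran from 8.25 to 8.60 in control livers and 8.49 to 8.87 in low-protein livers. None of them had an unadjusted p under 0.05 (limma). Of 9 stellate cell markers 6 had higher means (median 0.06), and of 6 endothelial markers 2 did (median -0.04). The part of these marker groups in the higher Mgll, Plin2 and Cidea values was not tested.

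**Figure D4:**
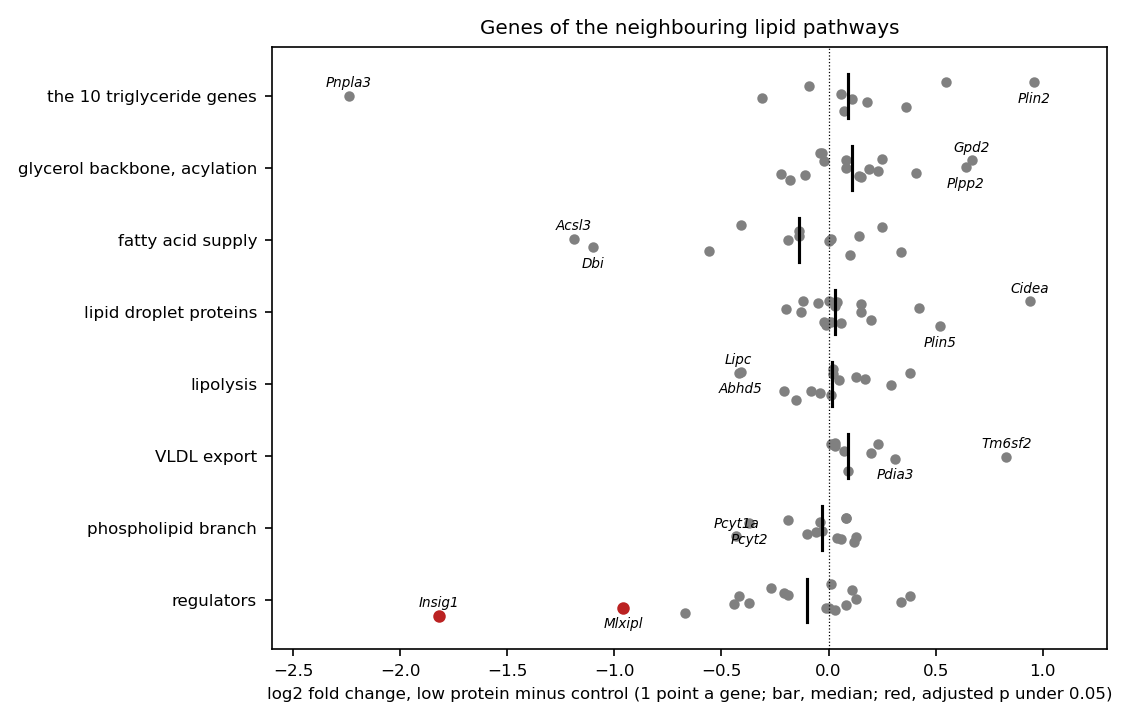
Log2 fold change (low protein minus control) of each measured gene of the 10 triglyceride genes and of 7 lists of neighbouring pathways and regulators, 1 point a gene, with a bar at the median and red for an adjusted p under 0.05. Insig1 at -1.82 and Mlxipl at -0.96 are the points that passed, and Pnpla3 at -2.24 is the lowest.

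Of 14 measured lipase genes and their regulators, 8 were higher and the median was 0.01. Abhd5, the protein that activates ATGL, read 9.85, 9.61 and 9.85 in control livers and 9.56, 9.21 and 9.32 in low-protein livers. Its groups did not overlap, though control replicate 2 and low-protein replicate 1 were close (log2 fold change -0.41, SE 0.120, adjusted p = 0.17 by limma). The hepatic lipase gene Lipc had -0.42 (SE 0.099), the phospholipase gene Pnpla8 0.29 (SE 0.108; 0.11 as the mean of its probe sets and -0.03 by the one of largest SD) and the esterase gene Aadac -0.21 (SE 0.105). G0s2, which inhibits ATGL and was chosen after its values were seen, had 0.05 (SE 0.250), and from -0.21 to 0.26 with 1 array left out.

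The 9 measured genes of lipoprotein export had higher means, as had 57.6% of all genes, with a median of 0.09. Apoa4, Apob and Sar1b, named after their values were seen, had 0.01, 0.03 and 0.07, and each turned with 1 array left out, to as low as -0.03, -0.01 and -0.03. Tm6sf2, an endoplasmic reticulum protein of lipoprotein loading, read 8.51, 8.46 and 8.80 in control livers and 9.10, 9.85 and 9.30 in low-protein livers. Every low-protein array was above every control, and the log2 difference was 0.83 (SE 0.191, adjusted p = 0.119 by limma). The chaperones P4hb and Pdia3, the first a subunit of the microsomal transfer protein, had 0.23 (SE 0.080) and 0.31 (SE 0.117; 0.54 by its probe set of largest SD). Mttp, the subunit that carries lipid, had 0.20 (SE 0.111; 0.30 without low-protein replicate 1). In the phospholipid branch 6 of 13 genes were higher and the median was -0.03. Pcyt2 and Pcyt1a, which make the activated head groups, had -0.37 (SE 0.097) and -0.43 (SE 0.125) without overlap, and Cds1 had -0.19 (SE 0.083). Chpt1, of the last step to phosphatidylcholine, had 0.13 (SE 0.130), which was 0.05, 0.28 and 0.07 without low-protein replicates 1, 2 and 3 in turn. It was 0.25 as the mean of its probe sets and 0.45 by the one of largest SD.

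Among 18 regulators of lipid genes 2 fell, none rose and 16 did not pass, where 0.12% of all genes fell. Insig1, which holds SREBP in the endoplasmic reticulum, read 10.44, 10.12 and 10.54 in control livers and 8.58, 8.39 and 8.67 in low-protein livers. Mlxipl, the gene of the carbohydrate-responsive factor ChREBP, read 8.19, 7.91 and 8.11 in control livers and 7.05, 7.33 and 6.96 in low-protein livers. Both separated the diets by more than the spread within them. Their log2 fold changes were -1.82 (SE 0.131, adjusted p = 0.00533 by limma) and -0.96 (SE 0.124, adjusted p = 0.0362). Insig1 passed in all 6 fits with an array left out and Mlxipl in 1 of 6, and the adjusted p of Mlxipl ran from 0.0271 to 0.148 over the alternatives. Srebf1, the gene of SREBP-1, had -0.67 (SE 0.257; -0.44 without control replicate 1) with overlap, low-protein replicate 2 being above control replicate 2, and Scap, the escort of SREBP, had -0.37 (SE 0.113; -0.16 as the mean of its probe sets).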

How the data were processed

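Liver RNA of 6 samples was labelled with a 3' IVT kit and hybridised to Affymetrix arrays (per the labels' protocols). For each probe set the authors deposited intensity values processed with RMA (background correction, normalization between arrays, summary per probe set), per the submitters' processing notes; its version is not given in the sources used here, nor is a genome build. RMA removes differences in total signal, and low intensities compress fold changes. Values ran from 3.61 to 21668 and were read as linear, so log2 was taken. Of 31099 probe sets, 57 controls were left out; 20826 of the 31042 tested had 1 symbol, 436 several and 9780 none here. Platform names can be old; gene IDs of 20758 matched RefSeq (GRCr8), and 0 symbols changed. A gene stood by its probe set of highest mean.

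Diets were compared with limma 3.58.1 in R 4.3.3 (two-sided, Benjamini-Hochberg over all probe sets or genes, threshold 0.05), with no filter. The residual df was 4, and the df with the prior was 8.38 for probe sets and 7.95 for genes. Likeness was the root mean square difference of centred values. All 10 genes are named, with, per list, those that passed and those of smallest p up to 4 (up to 3 for markers, in part). Measured hepatocyte, bile duct and fat cell markers are all named. The pairs of genes were added after the values were seen. Members and lists were chosen with earlier results of these data known. Alternatives were other prior variances, scalings, filters, array weights, replicate block, other probe set rules and each array left out. On simulated data of 31042 independent probe sets, 97 of 100 changed by 1 and 99 of 100 changed by 2 (log2) were recovered, with 14 false calls. The measured data gave only 41 calls, and the Benjamini-Hochberg cut is stricter when fewer probe sets pass. The simulated recovery is therefore no estimate of the share of changes found in these data. Recovery at spreads as wide as those of Pnpla3 or Plin2 was not tested separately. In the measured data Pnpla3 1380013_at, with a log2 fold change of -2.24, did not pass (adjusted p = 0.0595 by limma). By gene, Acsl3 at -1.19 (SE 0.185) and Dbi at -1.10 (SE 0.171) did not pass either (adjusted p = 0.0593 each by limma). Promoters are from the RefSeq table. Figures used matplotlib 3.10.9.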

Additional observations from a re-analysis of the deposited data

How the results depend on the processing

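The count of passing probe sets among the 20 was 0 in every alternative except the left-out arrays. There it ran from 0 to 2, the 2 being Pnpla3 without control replicate 2. By gene it ran from 0 to 1 over the left-out arrays and was 0 in the other settings. The filters dropped members before the test, so their 0 is not out of all members. The filter at the 25th percentile dropped both Gpam probe sets. The filter at the 50th also dropped Pnpla3 1391544_at and 1380643_at and Mgll 1375355_at, and by gene it dropped Gpam and Pnpla3. Gpd2 made the count of backbone genes 1 by the probe set of largest SD. Fatty acid supply had 2 with the filter at the 50th percentile and 1 with array weights, and 0 to 1 over the left-out arrays. The regulators had 1 with 75th-percentile centring and 1 with the replicate block, and 1 to 2 over the left-out arrays. Values near 0 changed sign. Over the left-out arrays Lpin2 1383665_at ran from -0.02 to 0.18, Lpin2 1396398_at from -0.10 to 0.02, Pnpla2 from -0.06 to 0.24 and Mgll 1375355_at from -0.14 to 0.00026. Lpin2 1396398_at was 0.0062 with 75th-percentile centring, and Pnpla8 was -0.03 by its probe set of largest SD. The cause of these was not tested. The replicate numbers showed no sign of pairing the arrays: deviations of same-numbered arrays correlated at -0.087, -0.027 and -0.102, and those of differently numbered arrays at -0.071 to 0.147. With 3 arrays a diet these values cannot settle whether arrays shared a batch. With the replicate block 6 of all probe sets passed, against 41 without it, and Pnpla3 1380013_at had an adjusted p = 0.0629 (limma). The rescalings moved the median of all probe sets by under 0.1 (log2). Hbb passed with the filter at the 50th percentile (adjusted p = 0.0453, limma). Signal near background limits Gpam, the low-protein values of Pnpla3 1391544_at and 1380643_at, and control replicate 2 of 1380643_at.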
